A study of Rattus norvegicus with 6 samples.

Results

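Nuclear transport genes were mostly lower in C6 cells that overexpress Aqp1 than in control C6 cells. The set holds the nucleoporins that build the nuclear pore, the importins and exportins that carry cargo through it, and the genes of the Ran cycle that gives transport its direction. Members were matched by a rule on gene symbols, and 61 of the 12121 listed genes matched. They were sorted by known role into 26 pore genes, 18 import genes, 9 export genes and 6 genes of the Ran cycle. The remaining 2, Ranbp9 and Ranbp10, share a symbol stem but are scaffolds of a ubiquitin ligase complex.

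C6 is an established glioma line from the rat, and Aqp1 encodes a channel that lets water cross cell membranes. RNA-seq was done on 3 libraries of C6 cells labelled as overexpressing Aqp1 (C6-AQP1) and 3 libraries of C6 cells labelled as control, and neither label names another allele or agent. The methods describe a pCDH vector whose name lists a CMV promoter, copGFP and puromycin resistance, and they do not say whether C6-AQP1 was 1 clone. The study calls its RNA-seq control C6 and describes that contrast as cells before and after AQP1 transfection, while the name C6-Pcdh, after the vector, is used for controls of other assays. No source used here states outright if the sequenced control had received empty vector, or if replicate libraries stem from separate cultures. The p-values therefore reflect how much these libraries varied, and that variation may be technical. Library totals ranged from 19054251 to 52725877 counts, and replicate 1 was the shallowest of both groups. The deposited tables list only genes with an average TPM (transcripts scaled to library and length) above 1 in at least 1 group, so a member that is low in both groups would not be listed. Levels are given as normalized CPM, counts scaled to the size of the library with edgeR's TMM factors and not to transcript length. Aqp1 itself had 347, 352 and 349 normalized CPM in the control and 1052, 1064 and 1057 in the C6-AQP1 libraries, a 3.03-fold difference. Of 8 glial markers, 5 were listed and all 5 rose, with a summed level of 3746 to 3822 CPM in control and 5472 to 5674 CPM in C6-AQP1 libraries, while Aldh1l1, Aqp4 and Fabp7 were not among the listed genes. None of 6 microglial markers was listed, against 1 of 4 endothelial, 2 of 4 fibroblast, 3 of 5 neuronal and 4 of 5 oligodendrocyte markers, and Pecam1, Cdh5, Kdr, Dcn, Lum, Rbfox3, Syp and Mag were absent from the list. The markers that were listed had summed levels of 2.19 to 3.14 CPM in control and 7.94 to 8.55 CPM in C6-AQP1 libraries for endothelium, 701 to 709 and 1135 to 1159 CPM for fibroblasts, 84.9 to 88.3 and 257 to 263 CPM for neurons, and 698 to 731 and 1402 to 1484 CPM for oligodendrocytes. Their part in the results was not tested. In bulk RNA, fewer cells of a kind and less RNA per cell cannot be told apart.

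The nuclear pore is a ring-shaped channel in the nuclear envelope, built from a scaffold and from nucleoporins whose repeats of phenylalanine and glycine (FG repeats) fill the passage. Importins bind cargo in the cytoplasm and release it in the nucleus when they meet Ran bound to GTP, and exportins bind cargo together with Ran-GTP and release it outside. Rcc1 loads Ran with GTP on chromatin and Rangap1 triggers GTP hydrolysis at the cytoplasmic face, so the gradient of Ran-GTP sets the direction of travel.

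A change is called here where edgeR's quasi-likelihood p, adjusted by the method of Benjamini and Hochberg over all 12121 genes, lay below 0.05. By this rule 45 of the 61 members fell, 9 rose and 7 did not pass. Among all listed genes 40.7% fell and 40.8% rose, and 81.5% passed in either direction. The balance between falls and rises, rather than the number that passed, is where the members stand away from this background. The median log2 fold change was -0.34 over the members and 0.00 over all listed genes. A difference over 1.5-fold was reached by 17 falling members and by 1 rising member, where 15% of all genes fell and 19.8% rose by that much, 34.8% in either direction. DEGs, with a fold change above 2 as in the methods, were 6 members, Nxt1, Nup43, Ranbp1, Nup85, Ran and Kpna2, all lower in C6-AQP1 cells, where 4.35% of all genes were lower DEGs. No member rose above 2-fold, and the highest was Kpna5 with a log2 fold change of 0.85, where 9.74% of all genes were higher DEGs. The C6-AQP1 libraries lay below every control library for 46 members, above them for 9, and overlapped them for 6, while 41.3% of all genes lay in each direction without overlap. Replicates were close, since the SD of log2 CPM between replicates had a median of 0.03 over the members and 0.06 over all genes.

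By their medians, the 4 roles moved to different extents. All 6 genes of the Ran cycle fell, 4 of them over 1.5-fold, with a median log2 fold change of -0.71. Of the 26 pore genes 21 fell, 2 rose and 3 did not pass, with a median of -0.44, and 9 fell over 1.5-fold. Of the 18 import genes 12 fell, 4 rose and 2 did not pass, with a median of -0.22, and 2 fell over 1.5-fold. Of the 9 export genes 6 fell, 2 rose and 1 did not pass, with a median of -0.11, and 2 fell over 1.5-fold. Among all listed genes 40.7% fell, and 15% fell over 1.5-fold. The roles are set side by side without a test, since genes of a role are not replicates. The median of the export genes rests on the gene that stands in its middle, Xpo4, and was -0.21 without it. Summed over its genes, the Ran cycle had 1388 to 1394 CPM in the control libraries and 759 to 784 CPM in the C6-AQP1 libraries. The pore genes had 2748 to 2773 and 2157 to 2185 CPM, the import genes 3279 to 3285 and 2618 to 2660.1 CPM, and the export genes 1235 to 1250.2 and 1012 to 1024 CPM. For each role, every C6-AQP1 library had a lower summed level than every control library.

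**Figure D1:**
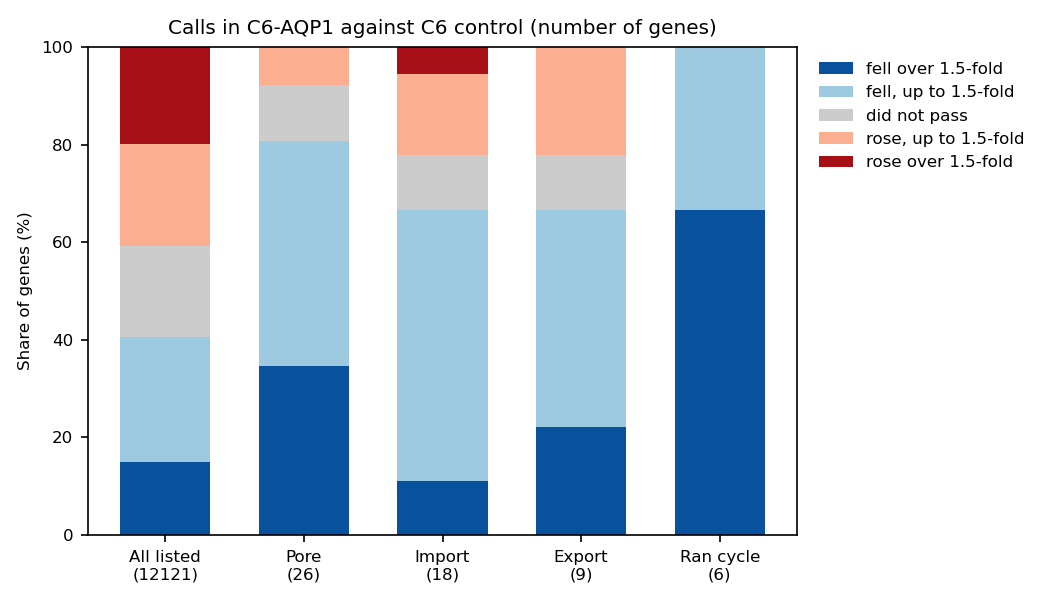
Share of genes (%, vertical axis) that fell, rose or did not pass edgeR's test at an adjusted p of 0.05, for all 12121 listed genes and for the 4 roles, with the number of genes under each bar. Genes that fell over 1.5-fold (dark blue) make up 15% of all listed genes, 34.6% of the pore genes, 11.1% of the import genes, 22.2% of the export genes and 66.7% of the Ran cycle.

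**Figure D2:**
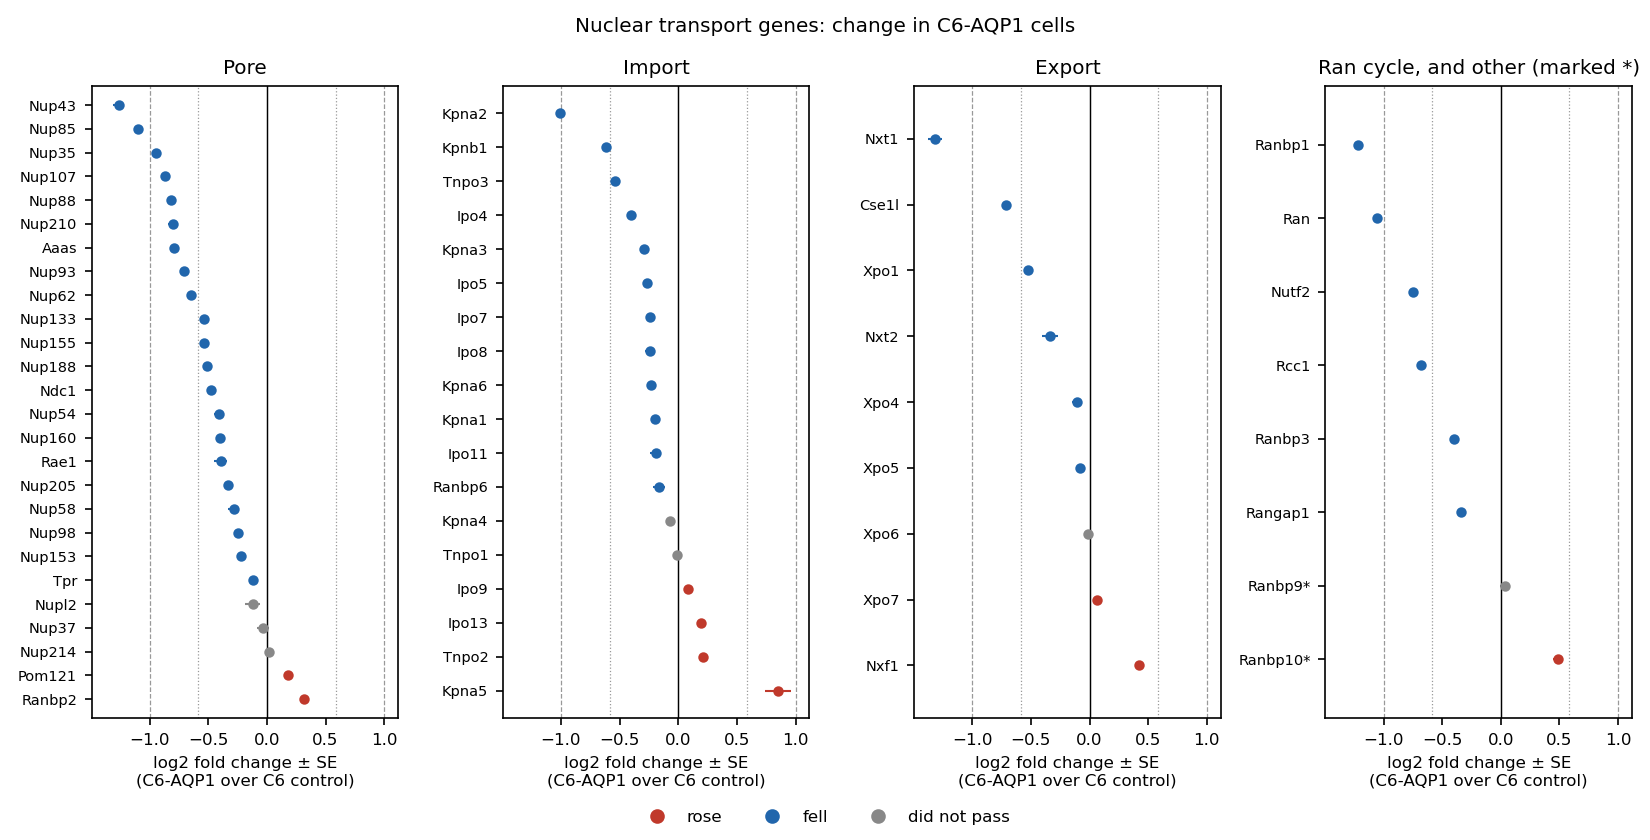
Log2 fold change of each of the 61 members between C6-AQP1 and C6 control cells (horizontal axis, bars give the standard error), grouped by role, with the dotted lines at 1.5-fold and the dashed lines at 2-fold. Points to the left of 0 are lower in C6-AQP1 cells, and these include every gene of the Ran cycle.

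Genes of cell proliferation, a list of 26 that includes replication, cyclin and mitosis genes, moved the same way. Of the 25 that were listed, 24 fell and 22 fell over 1.5-fold, with a median log2 fold change of -1.09 and 16 DEGs, and E2f2 did not pass with a log2 fold change of 0.03. E2f1 was not among the listed genes. Their summed level was 5871 to 5934 CPM in the control libraries and 2861 to 2893 CPM in the C6-AQP1 libraries. Their part in the change of the transport genes was not tested. By MTT assay, the study reports higher viability for AQP1-transfected than for Pcdh-transfected cells. How the lower proliferation transcripts relate to that assay was not tested.

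Ran, the small GTPase at the centre of the cycle, had 719.6, 720.1 and 709 normalized CPM in the control and 345, 347 and 339 in the C6-AQP1 libraries. The 2 groups lay far apart, with a log2 fold change of -1.06 ± 0.02 (SE, edgeR adjusted p = 9.1e-22). Ranbp1, which helps Rangap1 strip Ran-GTP from transport receptors, had 204, 202 and 201 normalized CPM in the control and 87.5, 88.6 and 85.3 in the C6-AQP1 libraries, the lowest log2 fold change of the cycle at -1.21 ± 0.03 (SE, edgeR adjusted p = 1.1e-20). Nutf2, the carrier that returns Ran-GDP to the nucleus, had 132, 129.9 and 131 normalized CPM in the control and 77.2, 79.4 and 76.8 in the C6-AQP1 libraries, and its log2 fold change was -0.75 ± 0.03 (SE, edgeR adjusted p = 1.7e-16). None of these genes showed an overlap between groups.

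Rcc1, the exchange factor of Ran, had 52.7, 51.4 and 53.6 normalized CPM in the control and 32.5, 33.2 and 32.6 in the C6-AQP1 libraries, a log2 fold change of -0.68 ± 0.04 (SE, edgeR adjusted p = 3.1e-13). Its counterpart Rangap1, the GTPase-activating protein, had 228, 233 and 236 normalized CPM in the control and 177, 191 and 182 in the C6-AQP1 libraries, and fell less, with a log2 fold change of -0.34. Ranbp3, a cofactor of Xpo1, had a log2 fold change of -0.39. So the enzymes that load and unload Ran both fell, and the difference between their changes was not tested.

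**Figure D3:**
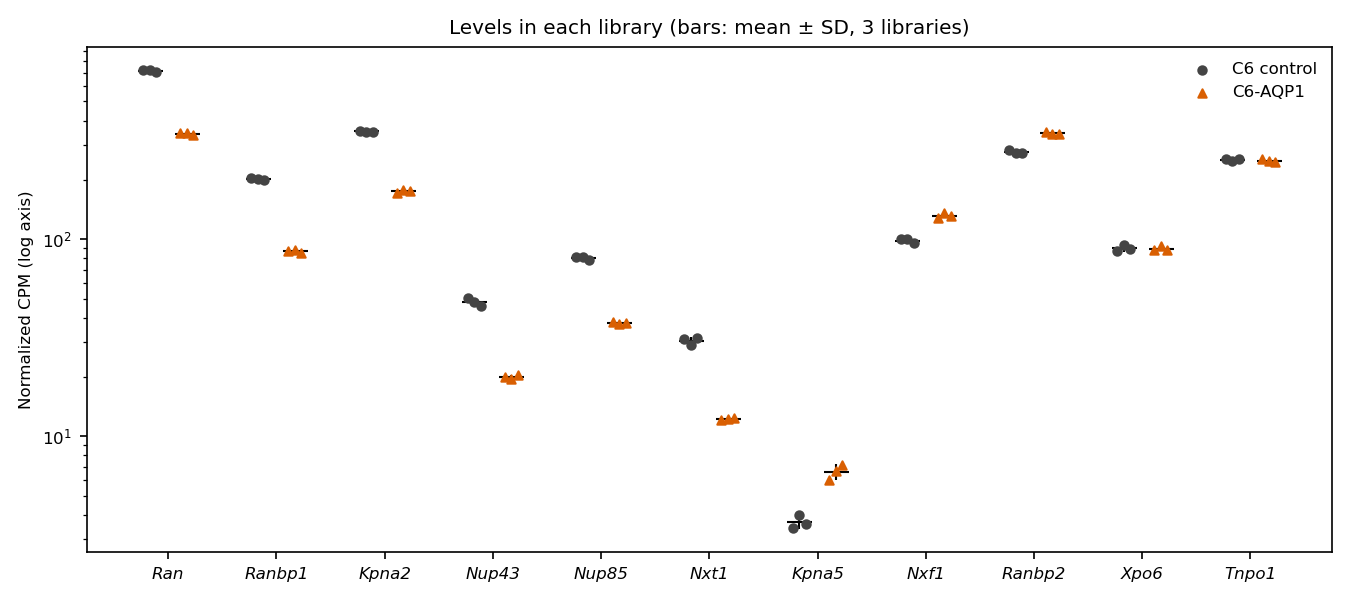
Normalized CPM (log axis) of 11 members in each library, with circles for C6 control, triangles for C6-AQP1 and bars for the mean and SD of 3 libraries. The 6 DEGs on the left lie lower in every C6-AQP1 library, Kpna5, Nxf1 and Ranbp2 lie higher, and Xpo6 and Tnpo1 overlap.

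Among the pore genes, the scaffold that forms the outer rings, called the Y complex, counted 6 falls among 7 genes, with a median log2 fold change of -0.54. Nup43 had 50.6, 48.2 and 45.8 normalized CPM in the control and 20.0, 19.5 and 20.4 in the C6-AQP1 libraries, a log2 fold change of -1.26 ± 0.05 (SE, edgeR adjusted p = 2.3e-16). Nup85 had 81, 81.7 and 78.8 normalized CPM in the control and 38.1, 37.3 and 37.6 in the C6-AQP1 libraries, a log2 fold change of -1.10 ± 0.03 (SE, edgeR adjusted p = 8.7e-18). The control level of this pair was 2.4-fold and 2.14-fold that of C6-AQP1 cells. Nup107 had 124, 125 and 123 normalized CPM in the control and 67.2, 67.5 and 68.9 in the C6-AQP1 libraries, a log2 fold change of -0.87 ± 0.03 (SE, edgeR adjusted p = 1.6e-17). Nup133 and Nup160, further subunits of the scaffold, had log2 fold changes of -0.54 and -0.40. Nup98, whose precursor is cut into Nup98 and the scaffold protein Nup96, had -0.25 on the same scale. Nup37 did not pass, with 28, 28.4 and 26.8 normalized CPM in the control and 29.4, 26.8 and 25.9 in the C6-AQP1 libraries and a log2 fold change of -0.03 (edgeR adjusted p = 0.6), and its sign turned with other scalings of the libraries. The subunits of this complex therefore differed in their transcript changes, from -1.26 to -0.03 on the log2 scale.

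All 5 genes of the inner ring, which anchors the pore to its membrane and holds the central channel, fell, with a median log2 fold change of -0.54. Nup35 had 61.6, 60.2 and 62.4 normalized CPM in the control and 31.4, 33 and 31 in the C6-AQP1 libraries, a log2 fold change of -0.95 ± 0.04 (SE, edgeR adjusted p = 1.1e-15). Nup93, the linker of this ring, followed with a log2 fold change of -0.71, and Nup155, Nup188 and Nup205 had -0.54, -0.51 and -0.34. The 3 channel nucleoporins, whose FG repeats line the passage, fell too. Nup62 had 171, 175 and 176 normalized CPM in the control and 106, 113 and 113 in the C6-AQP1 libraries, a log2 fold change of -0.65 ± 0.03 (SE, edgeR adjusted p = 2.2e-15), and its partners Nup54 and Nup58 had -0.41 and -0.28.

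Of the 3 proteins that span the pore membrane, Nup210 and Ndc1 fell, with log2 fold changes of -0.80 and -0.48. Nup210 had 39.9, 40.9 and 42.5 normalized CPM in the control and 22.3, 24.7 and 23.5 in the C6-AQP1 libraries (SE 0.05 on the log2 scale, edgeR adjusted p = 5.2e-13). Pom121 rose, with 69.5, 72.3 and 76.1 normalized CPM in the control and 79.8, 84 and 83.6 in the C6-AQP1 libraries and a log2 fold change of 0.18 ± 0.03 (SE, edgeR adjusted p = 5.2e-05). The rise was small but without overlap, from a highest control library at 76.1 to a lowest C6-AQP1 library at 79.8 CPM.

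The cytoplasmic face of the pore was mixed, with 3 falls, 1 rise and 2 genes that did not pass among 6. Nup88 had 147, 147 and 147 normalized CPM in the control and 82, 83.5 and 84.5 in the C6-AQP1 libraries, a log2 fold change of -0.82 ± 0.03 (SE, edgeR adjusted p = 1.7e-17). Aaas, which is mutated in triple A syndrome, had a log2 fold change of -0.79, and Rae1, an mRNA export factor that also acts at the spindle, had -0.40. Nup214, the binding partner of Nup88, did not pass, with 54.2, 53.4 and 54.6 normalized CPM in the control and 52, 55.6 and 55.7 in the C6-AQP1 libraries and a log2 fold change of 0.02 (edgeR adjusted p = 0.65). Nupl2 had a log2 fold change of -0.12 (edgeR adjusted p = 0.094), and its groups did not overlap. Ranbp2, the large filament protein that binds Ran and SUMO-modified Rangap1, rose. It had 284, 273 and 275 normalized CPM in the control and 351, 342 and 342 in the C6-AQP1 libraries, a log2 fold change of 0.32 ± 0.02 (SE, edgeR adjusted p = 9.9e-12). At the nuclear basket, Nup153 and Tpr fell slightly, with log2 fold changes of -0.22 and -0.12.

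When the pore genes were split by FG repeats, a split made after their values were seen, the 9 genes with such repeats (Nup54, Nup58, Nup62, Nup98, Nup153, Nup214, Nupl2, Pom121 and Ranbp2) had a median log2 fold change of -0.22, with 5 falls and 2 rises. The other 17 had a median of -0.54, with 16 falls and no rise, and Nup37 as the gene that did not pass. Both pore genes that rose, Ranbp2 and Pom121, belong to the FG group. This split was not tested.

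**Figure D4:**
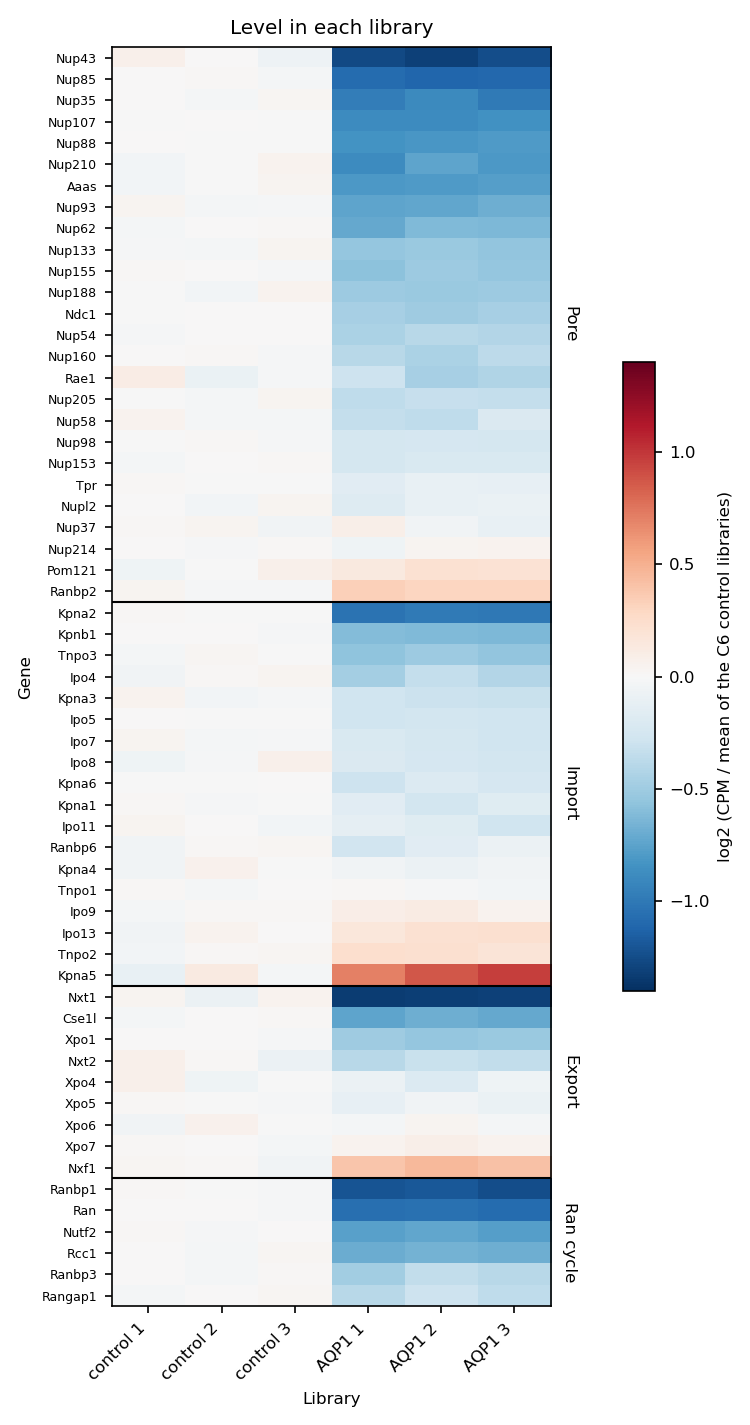
Level of the 59 genes of the 4 roles in each of the 6 libraries, as log2 of the CPM over the mean of the 3 C6 control libraries (colour scale), with genes in rows sorted by change within each role. The 3 control columns stay near 0, and the 3 C6-AQP1 columns are blue for the falling genes and red for the rising ones, with Kpna5 the reddest.

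The importin alphas are adaptors that bind the classical nuclear localization signal and link it to importin beta 1. Kpna2, the form known to be abundant in dividing and embryonic cells, had 355, 350.2 and 351 normalized CPM in the control and 171, 177 and 176 in the C6-AQP1 libraries, a log2 fold change of -1.01 ± 0.02 (SE, edgeR adjusted p = 1.5e-20). It lay at the edge of the 2-fold threshold and was under it in 5 of 14 alternatives, with log2 fold changes of -1.02 to -0.95, among them those without C6 control replicate 1 (-0.998) and without C6-AQP1 replicate 1 (-0.997). Kpna3, Kpna6 and Kpna1 fell by less, with log2 fold changes of -0.29, -0.24 and -0.20 (SE 0.03 for each, edgeR adjusted p = 1.1e-08, 2.9e-07 and 1.2e-05). Kpna3 had 98.6, 92.9 and 93.9 normalized CPM in the control and 78.4, 77.4 and 76.7 in the C6-AQP1 libraries. Kpna4 did not pass, with 73.3, 79 and 75.5 normalized CPM in the control and 73.2, 71.6 and 73.4 in the C6-AQP1 libraries and a log2 fold change of -0.07 (edgeR adjusted p = 0.058, with 0.011 to 0.69 over the alternatives). It passed without C6 control replicate 1 (adjusted p = 0.031) and without C6-AQP1 replicate 1 (adjusted p = 0.041) in the same test. Kpna5 was the member with the lowest counts, down to 76 in a library, and it rose. It had 3.41, 4 and 3.6 normalized CPM in the control and 5.99, 6.69 and 7.19 in the C6-AQP1 libraries, a log2 fold change of 0.85 ± 0.11 (SE, edgeR adjusted p = 5.1e-07).

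The makeup of the importin alpha counts can be read within each library and does not depend on the scaling. Of the counts of the 6 importin alphas, Kpna2 took 50.6% ± 0.123 in control and 36.6% ± 0.39 in C6-AQP1 libraries (SD, n = 3). Kpna4 took 10.9% ± 0.457 and 15.3% ± 0.248, and Kpna6 took 13.7% ± 0.126 and 16.9% ± 0.507. Kpna5 went from 0.527% ± 0.0455 to 1.39% ± 0.116. These are shares of reads and not of molecules, since transcript lengths were not used. A lower share of Kpna2 raises the shares of the others by construction.

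**Figure D5:**
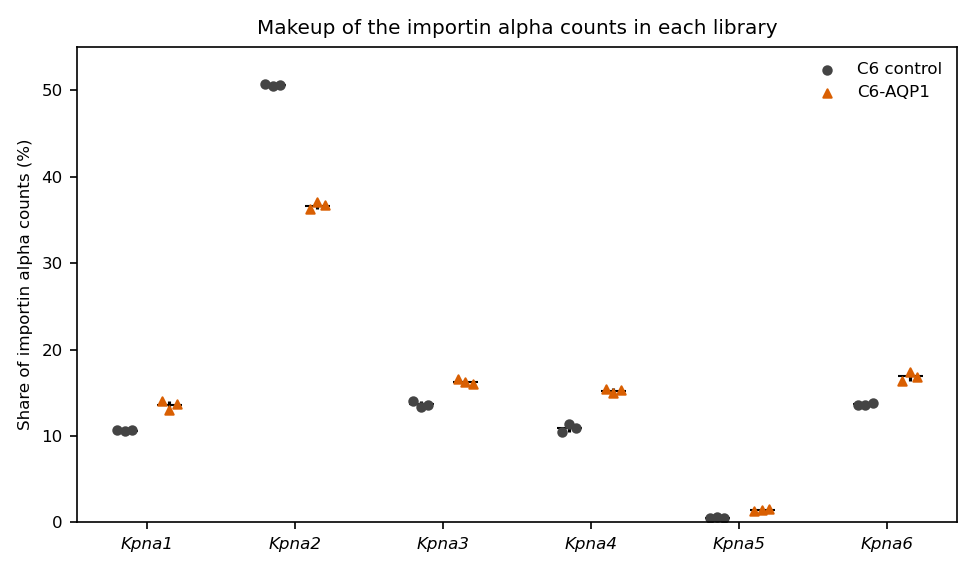
Share of each importin alpha gene in the summed counts of the 6 genes (%, vertical axis), with circles for C6 control libraries, triangles for C6-AQP1 libraries and bars for the mean and SD of 3 libraries. Kpna2 drops from 50.6% to 36.6%, and the other 5 genes each take a larger share.

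Of the 12 importins of the beta family, which contact the pore itself, 8 fell, 3 rose and Tnpo1 did not pass. Kpnb1, importin beta 1 and partner of the importin alphas, had 699, 700.0 and 691 normalized CPM in the control and 456, 454 and 451 in the C6-AQP1 libraries, a log2 fold change of -0.62 ± 0.02 (SE, edgeR adjusted p = 3.7e-18). Tnpo3, the importer of SR splicing factors, had 185, 193 and 188 normalized CPM in the control and 128, 132 and 129 in the C6-AQP1 libraries, a log2 fold change of -0.54 ± 0.02 (SE, edgeR adjusted p = 1.2e-14). Ipo4, which imports histones, had a log2 fold change of -0.40, and Ipo5, an importer of ribosomal proteins and histones, had -0.27. Ipo11 and Ranbp6 fell by less, with -0.19 and -0.16, and the call of Ranbp6 was lost when libraries were scaled by their size alone (adjusted p = 0.052 from edgeR, with 0.0021 to 0.052 over the alternatives). The risers were Tnpo2, Ipo13 and Ipo9, with log2 fold changes of 0.21, 0.20 and 0.09. Ipo13 carries cargo in both directions.

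Paralogs were compared by the ratio of their counts within a library. Ipo7 and Ipo8 both fell, each with a log2 fold change of -0.24 (SE 0.02 and 0.04, edgeR adjusted p = 7.6e-09 and 1.7e-05). The ratio of Ipo7 to Ipo8 was 5.2 ± 0.363 in control and 5.15 ± 0.0155 in C6-AQP1 libraries (SD, n = 3, adjusted p = 0.9 from an exact two-sided permutation test). The transportins Tnpo1 and Tnpo2, which import RNA-binding proteins, are given side by side. Tnpo1 had 255, 249 and 255 normalized CPM in the control and 255, 251 and 246 in the C6-AQP1 libraries, which overlap. The sign of the Tnpo1 log2 fold change of -0.01 (edgeR adjusted p = 0.57) turned with other scalings. Tnpo2 had 153, 159.6 and 161 normalized CPM in the control and 185, 184 and 179 in the C6-AQP1 libraries, a log2 fold change of 0.21 ± 0.03 (SE, edgeR adjusted p = 1.3e-07). The ratio of Tnpo1 to Tnpo2 was 1.6 ± 0.0548 in control and 1.37 ± 0.0117 in C6-AQP1 libraries without overlap (SD, n = 3, adjusted p = 0.133 from the exact test). The ratio of Kpna3 to Kpna4 went from 1.25 ± 0.085 to 1.07 ± 0.0186, again without overlap (SD, n = 3, adjusted p = 0.133 from the exact test). Adjustment was over 4 pairs, and with 3 libraries against 3 the unadjusted p cannot go below 0.1, so no pair could have passed and a p of 0.9 does not show that a ratio stayed the same.

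The exporters held both the largest fall among the members and a clear rise. Nxt1, the small partner of the mRNA export receptor Nxf1, had 31.3, 28.9 and 31.6 normalized CPM in the control and 12.1, 12.2 and 12.3 in the C6-AQP1 libraries, a log2 fold change of -1.32 ± 0.06 (SE, edgeR adjusted p = 3.8e-15). Nxf1 itself had 100.0, 99.8 and 95.4 normalized CPM in the control and 129, 135 and 131 in the C6-AQP1 libraries, a log2 fold change of 0.42 ± 0.03 (SE, edgeR adjusted p = 9.4e-12). The partners thus moved in opposite directions, and the count ratio of Nxf1 to Nxt1 went from 3.22 ± 0.215 in control to 10.8 ± 0.259 in C6-AQP1 libraries, a pair chosen after its values were seen (SD, n = 3, adjusted p = 0.133 from the exact test over the 4 pairs). Nxt2, the paralog of Nxt1, had a log2 fold change of -0.34.

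Among the exportins proper, Cse1l and Xpo1 fell and the others changed little. Cse1l, which returns importin alpha to the cytoplasm, had 239, 245 and 246 normalized CPM in the control and 146, 151 and 148 in the C6-AQP1 libraries, a log2 fold change of -0.71 ± 0.02 (SE, edgeR adjusted p = 2.5e-17). Xpo1, the receptor for leucine-rich export signals, had 459, 461 and 454 normalized CPM in the control and 323, 315 and 318 in the C6-AQP1 libraries, a log2 fold change of -0.52 ± 0.02 (SE, edgeR adjusted p = 3.1e-16). So the importin alpha Kpna2, its partner Kpnb1 and its recycling factor Cse1l were all lower in C6-AQP1 cells. Xpo5, the exporter of microRNA precursors, and Xpo4 had log2 fold changes of -0.08 and -0.11, and Xpo7 had 0.06. The call of Xpo4 was lost in 6 of 14 alternatives (adjusted p = 0.0048 to 0.22 over them), including those without C6 control replicate 1 (0.11), C6 control replicate 3 (0.064) and C6-AQP1 replicate 2 (0.18). That of Xpo5 was lost without replicate 1 of both groups (adjusted p = 0.055), and that of Xpo7 without C6-AQP1 replicate 2 (adjusted p = 0.081) by the same test. Xpo6, the exporter of actin, did not pass, with 86.8, 93.8 and 89.6 normalized CPM in the control and 88, 92.6 and 88 in the C6-AQP1 libraries and a log2 fold change of -0.01 (edgeR adjusted p = 0.76), whose sign also turned with other scalings. Of the genes that share only the symbol stem, Ranbp10 rose with a log2 fold change of 0.49 and Ranbp9 had 0.04 (adjusted p = 0.4 from edgeR).

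Promoter sequences are shown for the 6 DEGs, which fell together, and for Ranbp2 and Nxf1, which rose. They are the 250 bases before the annotated start, from RefSeq on the GRCr8 build, which is newer than the rn6 build of the counts, and are printed 5′ to 3′ along the strand of the gene. Capitals mark matches to 7 short motifs on either strand, namely TTTCGCGC or TTTGGCGC (E2F), TTTGAA (the CHR element of cell cycle promoters), CCAAT (the box read by NF-Y), the E-box CACGTG, the ETS letters CCGGAAG, the GC box GGGCGG and the NRF1 consensus. No matches of different motifs overlapped in a member.
Ran (chr12:33314291-33314540, minus strand): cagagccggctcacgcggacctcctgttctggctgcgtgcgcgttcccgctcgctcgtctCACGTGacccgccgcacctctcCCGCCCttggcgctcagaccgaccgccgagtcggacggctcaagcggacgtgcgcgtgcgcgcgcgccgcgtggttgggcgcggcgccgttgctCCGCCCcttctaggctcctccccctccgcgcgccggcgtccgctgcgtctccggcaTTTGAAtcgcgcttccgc
Ranbp1 (chr11:96246662-96246911, plus strand): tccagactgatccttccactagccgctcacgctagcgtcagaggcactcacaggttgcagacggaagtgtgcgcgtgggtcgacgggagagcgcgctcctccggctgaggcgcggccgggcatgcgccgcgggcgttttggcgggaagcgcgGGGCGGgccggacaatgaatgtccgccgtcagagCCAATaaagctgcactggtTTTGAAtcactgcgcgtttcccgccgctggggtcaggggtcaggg
Kpna2 (chr10:92445842-92446091, minus strand): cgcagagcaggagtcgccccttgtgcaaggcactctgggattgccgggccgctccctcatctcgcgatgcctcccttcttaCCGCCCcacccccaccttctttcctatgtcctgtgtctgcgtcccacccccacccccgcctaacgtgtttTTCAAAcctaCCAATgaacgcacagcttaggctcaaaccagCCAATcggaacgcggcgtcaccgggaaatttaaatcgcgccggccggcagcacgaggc
Nup43 (chr1:3968216-3968465, plus strand): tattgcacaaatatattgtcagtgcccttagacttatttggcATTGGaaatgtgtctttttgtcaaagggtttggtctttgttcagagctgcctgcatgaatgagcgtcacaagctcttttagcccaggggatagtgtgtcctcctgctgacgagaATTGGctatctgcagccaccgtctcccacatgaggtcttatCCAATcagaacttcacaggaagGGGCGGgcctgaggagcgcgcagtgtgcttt
Nup85 (chr10:101305185-101305434, plus strand): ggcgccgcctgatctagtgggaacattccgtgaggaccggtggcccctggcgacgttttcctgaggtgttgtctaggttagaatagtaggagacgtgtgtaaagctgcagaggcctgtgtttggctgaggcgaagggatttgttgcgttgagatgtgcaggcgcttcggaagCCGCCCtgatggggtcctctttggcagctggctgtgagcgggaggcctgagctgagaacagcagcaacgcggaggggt
Nxt1 (chr3:156561871-156562120, plus strand): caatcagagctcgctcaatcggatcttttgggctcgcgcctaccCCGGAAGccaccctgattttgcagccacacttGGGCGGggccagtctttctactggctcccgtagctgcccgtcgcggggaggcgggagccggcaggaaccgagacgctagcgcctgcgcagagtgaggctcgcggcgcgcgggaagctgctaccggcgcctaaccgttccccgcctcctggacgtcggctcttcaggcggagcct
Ranbp2 (chr20:26985064-26985313, plus strand): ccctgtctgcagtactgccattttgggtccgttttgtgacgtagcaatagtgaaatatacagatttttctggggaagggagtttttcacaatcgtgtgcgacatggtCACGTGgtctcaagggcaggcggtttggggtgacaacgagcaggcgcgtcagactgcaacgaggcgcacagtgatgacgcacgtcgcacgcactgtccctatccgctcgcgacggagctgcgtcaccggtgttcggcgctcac
Nxf1 (chr1:215084313-215084562, plus strand): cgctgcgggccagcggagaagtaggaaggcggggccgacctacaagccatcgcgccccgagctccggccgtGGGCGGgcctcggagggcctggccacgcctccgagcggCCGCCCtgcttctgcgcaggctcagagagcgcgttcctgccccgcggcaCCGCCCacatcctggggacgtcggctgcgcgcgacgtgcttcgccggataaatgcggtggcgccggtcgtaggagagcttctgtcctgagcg

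In these windows, TTTGAA stood before Ran, Ranbp1 and Kpna2, and CCAAT before Ranbp1, Kpna2 and Nup43. A GC box stood before all 6 DEGs and before Nxf1, the E-box before Ran and Ranbp2, and the ETS letters before Nxt1. Over the full window of 250 bases before and 50 after the start, 55 of the 61 members had a promoter in the table, 54 by symbol and Nupl2 by its newer name, and those of Nup107, Ndc1, Kpna1, Kpna3, Kpnb1 and Xpo7 were not used here. E2F letters were found in 3 of 55 members (5.45%), against 1.59% of 8636 promoters of listed genes and 0.84% of all 27457 promoters, and the members were Nup155, Nup214 and Nxt2. The 15 members with a promoter that fell over 1.5-fold held none of these letters. With the letters in 1.59% of listed promoters, none in 15 says little about E2F sites. Only these exact spellings were searched, so other forms of an E2F site were not counted. Near spellings, such as tttggcgg and tttcccgc in the printed Ranbp1 window, are thus unmarked. For its downregulated DEGs, the study names E2F1 and E2F4, each paired with DP1 or DP2, as top factors by binding sites. That result was not examined here. TTTGAA was found in 15 of 55 members (27.3%), against 11.5% of listed genes and 18.1% of all promoters, including 6 of the 15 that fell over 1.5-fold, 6 of 25 that fell by less and 2 of 8 that rose. CCAAT was found in 43.6% of members and 38.7% of listed genes, and the GC box in 61.8% and 64.9%. The E-box was found in 10.9% and 9.54%, the ETS letters in 16.4% and 18.6%, and the NRF1 letters in 3.64% and 2.11%. These matches describe letters and do not show binding.

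Genes of the same pathway that the symbol rule does not catch were read from lists, whose counts stand against 40.7% falls and 40.8% rises among all listed genes. Of 4 listed pore subunits with other names, 3 fell and Gle1 did not pass, with a median log2 fold change of -0.30, and Cetn2 and Sec13 had -0.53 and -0.48. Seh1l and Cetn3 were not listed. In mRNA export, where Thoc1 has 2 entries and Ddx19a, Nxf2, Nxf3 and Nxf7 were not listed, 12 of 19 entries fell, 5 rose and 2 did not pass, with a median of -0.28. Its lowest values were those of the helicase Ddx39a, with 105, 106 and 106 normalized CPM in the control and 39.8, 41 and 42.6 in the C6-AQP1 libraries and a log2 fold change of -1.36 ± 0.03 (SE, edgeR adjusted p = 9.7e-20), and of the adaptor Alyref, with -1.28. Ddx39b, the close relative of Ddx39a and singled out after its value was seen, rose with a log2 fold change of 0.22. Among 7 factors of other export routes and RNP import, 5 fell and 1 rose, with a median of -0.25, and the largest falls were those of Nmd3, the adaptor for the large ribosomal subunit, and Rangrf, which binds Ran, with log2 fold changes of -0.47 and -0.43.

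The SUMO cycle, which modifies Rangap1 at the pore, counted 8 falls among 9 entries, with a median log2 fold change of -0.56, where 40.7% of all listed genes fell. The median is the value of Sumo2 (edgeR adjusted p = 0.049). It was -0.48 without C6 control replicate 1, -0.67 without C6-AQP1 replicate 1 and -0.47 without C6-AQP1 replicate 3. Senp1 has a higher entry that did not pass (log2 fold change 0.07). Its lower entry, with a mean of 3.11 CPM in control and 2.5 CPM in C6-AQP1 libraries, fell at the edge of the threshold (edgeR adjusted p = 0.05). Sumo3, a modifier counted from only 34 to 515 reads a library, had 8.62, 9.96 and 8.35 normalized CPM in the control and 1.74, 1.94 and 1.25 in the C6-AQP1 libraries, a log2 fold change of -2.47 ± 0.14 (SE, edgeR adjusted p = 9.2e-13). Sae1, a subunit of the SUMO-activating enzyme, had a log2 fold change of -0.69. Of 19 entries of the nuclear envelope and lamina, 11 fell, 4 rose and 4 did not pass, with a median of -0.15, against 40.7% falls and 40.8% rises among all listed genes. These entries cover 18 genes, since Tor1aip2 has a second entry. Banf1, which links chromatin to the envelope, had a log2 fold change of -1.08, and the B-type lamins Lmnb2 and Lmnb1, singled out after their values were seen, had -0.81 and -0.74. Lmna, the remaining lamin gene of the list, fell as well, with -0.64. Syne2, a giant nesprin of the outer membrane, rose, with a log2 fold change of 1.04 (edgeR adjusted p = 5.8e-21). It had 210.1, 212 and 206 normalized CPM in the control and 425, 431 and 435 in the C6-AQP1 libraries. The other rises of this list were those of Syne1, Sun2 and Sun1, with log2 fold changes of 0.53, 0.10 and 0.09.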

How the data were processed

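RNA-seq was analysed in 3 C6-AQP1 and 3 C6 control libraries, grouped by their titles. Per the study's methods and the processing notes of the submitters, reads were checked with FastQC (0.11.2), trimmed with Trimmomatic (0.36), aligned to rn6 with STAR (2.5.1b) and quantified with RSEM (1.2.29). No gene annotation is named there. The authors deposited RSEM expected counts, not normalized, for genes with an average TPM above 1 in at least 1 group. RSEM divides reads that fit several genes, and 4 of the 61 members, Ranbp2, Nup85, Kpna2 and Tnpo3, had counts that were not whole. A whole count does not exclude reads lost to or gained from pseudogene copies.

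The expected counts were rounded, scaled by TMM and compared with edgeR 4.0.16 (quasi-likelihood test, robust, no covariates, no further filter) under R 4.3.3. CPM are normalized by TMM and not by length, so levels are not compared between genes. The common coefficient of biological variation was 2.97%. Within a group, counts of libraries differed by 2.15 to 4.29 in chi-square per degree of freedom, above sampling noise, so each was counted as a library. The edgeR, DESeq2 and limma steps were tested on simulated data. Alternatives were DESeq2 1.42.0, limma-voom 3.58.1, other scalings, filterByExpr, a replicate block, leaving out libraries, and other role assignments. Members and lists were chosen with earlier results of these data known. The genes given with full statistics were the DEGs, the largest changes of each role, the importin alphas, paralog pairs and members that did not pass, with Nup62, Pom121 and Ranbp2 added after their values were seen. Of each pathway list, the 2 largest changes were named, some with the log2 fold change alone. The motifs, the FG split and the pair of Nxf1 and Nxt1 were chosen after the values were seen.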

Additional observations from a re-analysis of the deposited data

How the results depend on the processing

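Of 61 members, 52 kept call and direction in all 14 alternatives. The other 9 had log2 fold changes no larger than 0.16 in size, and 58 members kept their direction. With upper quartile scaling and with library size only, the median log2 fold change was 0.036 and 0.055 over all listed genes, -0.30 and -0.28 over the members, -0.41 and -0.39 over pore, -0.18 and -0.16 over import, and -0.68 and -0.66 over Ran cycle genes, and with library size only it was -0.055 over export genes. These scalings left 1 import gene lower by over 1.5-fold, with Kpnb1 under that line, and turned the log2 fold changes of Nup37 (0.0051 and 0.024), Tnpo1 (0.021 and 0.041) and Xpo6 (0.024 and 0.043) positive. They shift all genes together by construction. DESeq2 left 1 rising export gene, Nxf1, since Xpo7 was lost (adjusted p = 0.053).

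Leaving out 1 library at a time gave 1 to 2 rising export genes, with 1 without C6-AQP1 replicate 2, and medians of -4.09e-05 to 0.011 over all genes, -0.34 to -0.30 over the members, -0.46 to -0.43 over pore and -0.23 to -0.20 over import genes. In these fits Nup37 ranged from -0.071 to 0.010, Tnpo1 from -0.025 to 0.0012 and Xpo6 from -0.037 to 0.028. Without replicate 1 of both groups the median over the members was -0.29. With Ranbp2 moved to the Ran cycle and Ipo13 and Xpo4 left out, medians were -0.48 for pore, -0.24 for import, -0.21 for export and -0.68 for Ran cycle genes. Xpo4 and Xpo5 also lost their calls with upper quartile scaling (edgeR adjusted p = 0.11 and 0.13) and with library size only (0.22 and 0.35). Ranbp9 gained a call with library size only (0.043).

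Both groups share replicate numbers. Deviations of same-numbered libraries correlated at 0.126, -0.0124 and 0.0651, and those of other-numbered libraries at -0.1325 to 0.106. So few values cannot decide whether the numbers pair the libraries. With a replicate block, 46 members fell and 9 rose, and Kpna4 was the member that gained a call (edgeR adjusted p = 0.039). Counts of 76 and more in each member left depth a limit mainly for Kpna5.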
